A study of Mus musculus with 12 samples.

Results

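The genes described are 10 that make and ripen the contents of hormone granules: the granins Chga, Chgb, Scg2, Scg3 and Vgf, the convertase gene Pcsk1, the convertase-binding proteins Pcsk1n and Scg5, and the enzymes Cpe and Pam. They were chosen by name, as the rows of the table whose gene symbol was on this list, and all 10 were found among 18497 named genes. RNA was measured by stranded sequencing of rRNA-depleted total RNA in 12 pituitary glands of adult male mice, 1 library per gland. All animals were wild-type F1 offspring labelled C57BL/6Jx129S1/SvlmJ that had been injected as zygotes, kept in KSOM medium and carried by pseudopregnant CD1 females. In 6 of them (vehicle 1 to 6) the injection held nuclease-free water, and in the other 6 (mimic 1 to 6, labelled Str - let7f) it held a miRCURY LNA mimic of the microRNA let-7f-5p at a dose the labels call stress-relevant. Both groups therefore share the injection, the culture and the transfer. The comparison asks whether the zygotic dose left a difference in the adult gland. An age beyond adult, the litter and the recipient female were not labelled, so p-values measure the spread between these glands and cannot separate shared litters.

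Peptide hormones are made as larger precursors and stored in dense-core granules. Granins are acidic proteins that aggregate with hormones in the Golgi and help granules to form. Inside the granule, prohormone convertases cut precursors after paired basic residues, carboxypeptidase E trims the exposed basic residues, and peptidylglycine alpha-amidating monooxygenase turns a C-terminal glycine into an amide. In corticotrophs the product of Pcsk1 cuts proopiomelanocortin to corticotropin, and in melanotrophs of the intermediate lobe the product of Pcsk2 cuts it further to melanocyte-stimulating peptides.

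The injected microRNA is shown because the comparison rests on it. In the RefSeq table (GRCm38.p6) the mature sequence lies at chr13:48537889-48537910 on the minus strand and at chrX:151912353-151912374 on the plus strand, and it is the sequence given in the labels. Capitals mark the seed, bases 2 to 8 from the 5′ end.
mmu-let-7f-5p: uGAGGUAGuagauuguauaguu
The 7 letters that pair with this seed, CTACCTC, did not occur in the 3′ untranslated regions of any of the 10 genes (GENCODE M21 transcripts, 250 to 2542 bases in the longest coding transcript). They occurred in 1593 of 15481 genes (10.3%) searched in the same way. These letters are a description of the annotated transcripts, whose lengths differ, and say nothing of other kinds of pairing.

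The 12 libraries held 26378308 to 37061136 reads on named genes. Values are the authors' normalised counts, that is, reads divided by a size factor per library. The pituitary label fitted the hormone genes, with Gh alone at 10.2% of the vehicle libraries on average and none of the 7 hormone genes at 0 in any library. The glands differed in Pomc, from 45286 to 606984 normalised counts. The 3 lowest Pomc values were vehicle 1, vehicle 6 and vehicle 4, and these were also the 3 lowest for Pax7, the transcription factor that defines melanotrophs (145, 85 and 431, against 587 to 1924 in the other 9). The summed level of 12 posterior lobe and pituicyte markers ranged from 2972 to 24890 in vehicle and from 9447 to 14464 in mimic glands, with none of the 12 at 0. Of these 12 markers, 6 had vehicle 1, vehicle 4 and vehicle 6 as their 3 lowest glands. Scn7a, 1 of the 6, was 91.6 in vehicle 1 and 104.2 in vehicle 6, against 3458 to 5379 in mimic glands. Aqp4, not among the 6, was 422.7 in vehicle 1 and 356.2 in vehicle 6, against 343.3 to 551.2 in mimic glands. In tissue RNA, fewer cells of a type and less RNA per cell cannot be told apart.

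The granins and their enzymes were among the more abundant messages of the control gland. Together the 10 genes took 1.09% ± 0.0970 (SD, n = 6) of the normalised counts in vehicle glands and 0.995% ± 0.0769 (SD, n = 6) in mimic glands. The highest vehicle library held 1.24% and the lowest 0.980%, the mimic libraries ran from 0.870% to 1.08%, and the groups overlapped. To compare genes with one another, normalised counts were divided by the length of the longest annotated transcript in kilobases, which was known for 17107 of the 18497 genes (92.5%).

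Scg2, which encodes secretogranin II, the precursor of secretoneurin, stood highest at 46925 ± 7130 normalised counts per kilobase (SD, n = 6 vehicle glands), rank 12 of all genes with a length. Gh, Prl, Pomc and Cga held ranks 1 to 4. Chgb, which encodes chromogranin B, followed at 31239 ± 4279 and rank 16, and Chga, the gene of chromogranin A, at 17280 ± 2242 and rank 28. Scg5, the gene of the small chaperone of the Pcsk2 convertase, reached 15379 ± 1635 and rank 36. Cpe (10340 ± 849.6, rank 64) and Pam (9603 ± 626.2, rank 74) completed the 6 members within the top 100. Scg3, whose product binds chromogranin A and cholesterol-rich granule membrane, stood at 4112 ± 388.3 per kilobase (rank 182), and Pcsk1 at 2222 ± 613.8 (rank 419). Pcsk1n, which encodes proSAAS, an inhibitor of the Pcsk1 convertase, stood at 600.4 ± 114.7 (rank 3003).

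Vgf, a granin-family gene induced by nerve growth factor in neurons, was far below the rest at 23.04 ± 22.5 per kilobase (rank 14504). The 10 levels thus spanned 2037-fold, but 21.1-fold without Vgf and Pcsk1n. The order held in every one of the 12 libraries for 7 of the 9 neighbouring pairs, whose vehicle ranges did not overlap. The exceptions were Chga over Scg5, a 1.12-fold difference in means with the order kept in 11 of 12 libraries, and Cpe over Pam, a 1.08-fold difference also kept in 11 of 12. The vehicle ranges of these 2 pairs overlapped, so their order is not resolved beyond the spread between glands.

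**Figure D1:**
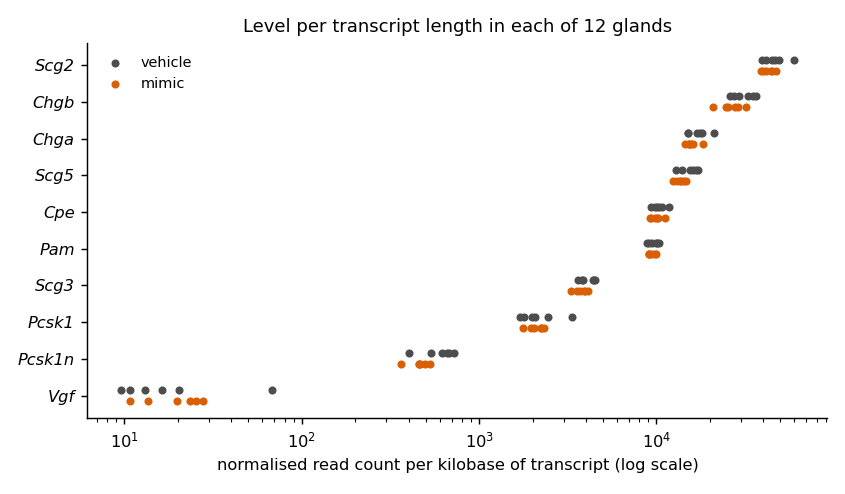
Level of each of the 10 genes per kilobase of transcript (log axis, normalised counts per kilobase) in each vehicle and mimic gland, ordered by the vehicle mean. The points of most neighbouring genes are separate, Chga and Scg5 and Cpe and Pam overlap, and Vgf lies 26.1-fold below Pcsk1n.

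Between mimic and vehicle glands none of the 10 genes passed the test. Over all genes, limma called 0 of 18390 genes at an adjusted p under 0.05 (0%), while 879 had a p under 0.05 before adjustment. edgeR's quasi-likelihood test, run on reads recovered from the table, also called 0, and 868 had a p under 0.05 before adjustment. DESeq2 on those reads called 10 genes, none of them among the 10 described here, and 927 had a p under 0.05 before adjustment. It gave no adjusted p to 2866 of the 18390 genes, so its calls come from fewer genes than those of limma and edgeR. The log2 fold change (mimic over vehicle) was negative for 9 of the 10, with a median of -0.12 and a range from -0.37 to 0.11. Over all genes tested 50.2% were negative and the median was 0.00 (-5e-04). All 10 values come from the same 12 glands, so that 9 of 10 is not a count of 9 separate observations.

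Pcsk1n, Scg5 and Chgb had unadjusted p-values under 0.05 in the limma fit, all lower in mimic glands. This is 3 of 10, where 2.49% of all genes tested were lower with an unadjusted p under 0.05. The 10 genes were chosen with earlier results of these data known, so these shares are a description and not a test. The adjusted p was 0.976 for each of the 3. The groups overlapped for all 10 genes, and 0.12% of all genes tested had groups that did not overlap.

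**Figure D2:**
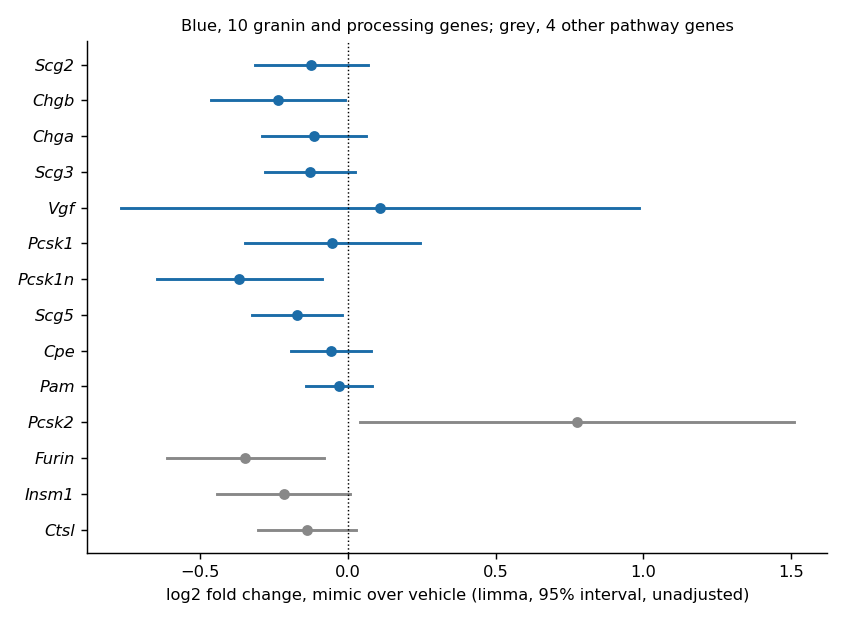
Log2 fold change of mimic over vehicle glands with its 95% confidence interval from the limma fit, for the 10 genes and for Pcsk2, Furin, Insm1 and Ctsl. Of the 10 genes only Pcsk1n, Scg5 and Chgb have intervals that lie wholly below 0, and Vgf has the widest interval.

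Scg2 ran from 98508 to 149677 normalised counts in vehicle glands, with a median of 115636. In mimic glands it ran from 97583 to 119421, with a median of 107419. The groups overlapped over nearly the whole mimic range, and 5 of 6 mimic glands lay below the vehicle mean. Mimic over vehicle gave a log2 fold change of -0.12 (SE 0.0896), with an unadjusted p of 0.191 in the limma fit.

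Chgb ran from 71640 to 100390 in vehicle glands with a median of 85149, and from 57423 to 87365 in mimic glands with a median of 72537. Of the vehicle glands 3 lay above the highest mimic gland, and of the mimic glands 3 lay below the lowest vehicle gland. The log2 fold change was -0.24 (SE 0.106, 95% interval -0.46 to -0.01), a fitted change of -15.1%, with an unadjusted p of 0.0428 and an adjusted p of 0.976 (limma). Leaving out 1 gland at a time gave -0.29 to -0.17.

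Chga ran from 28292 to 39675 in vehicle glands (median 32533) and from 27415 to 34638 in mimic glands (median 29237). Its log2 fold change was -0.12 (SE 0.0820), within the spread of the glands. Scg3 ran from 8663 to 10737 in vehicle (median 9821) and from 7845 to 9826 in mimic glands (median 9058). Scg3 had a log2 fold change of -0.13 (SE 0.0709), with an unadjusted p of 0.0898 in limma. For both genes 5 of 6 mimic glands were below the vehicle mean and the groups overlapped.

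Vgf was read from 27.1 to 193.4 in vehicle glands (median 41.4) and from 30.4 to 79.0 in mimic glands (median 61.5). The value of 193.4 was vehicle 4, and the other 5 vehicle glands ended at 57.8. These values rest on 368 reads over the 6 vehicle libraries and 342 over the 6 mimic libraries. For Vgf the log2 fold change was 0.11 (SE 0.409, 95% interval -0.77 to 0.98, limma), 0.49 without vehicle 4 and -0.06 without vehicle 3, so no direction can be given.

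Pcsk1 ran from 8553 to 16918 normalised counts in vehicle glands (median 10214) and from 8921 to 11663 in mimic glands (median 10764). The highest value was again vehicle 4, the next was vehicle 6 at 12314, and the other 4 vehicle glands ended at 10407, inside or below the mimic range. The log2 fold change was -0.05 (SE 0.138, 95% interval -0.35 to 0.24, limma), and 0.08 without vehicle 4.

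Pcsk1n had the largest difference of the 10 genes in size when all 12 glands were weighted equally, whereas Vgf had a larger one without vehicle 4 (0.49 against -0.33) and with library weights (0.29). It measured 884.2, 1350.6, 1574.3, 1476.5, 1172.2 and 1441.7 normalised counts in vehicle 1 to 6. In mimic 1 to 6 it measured 793.6, 1155.9, 999.8, 1014.9, 1090.6 and 1002.2. Of the vehicle glands 5 lay above the highest mimic gland, and vehicle 1 lay below 5 of the mimic glands. The means were 1317 ± 251.6 and 1009 ± 122.3 (SD, n = 6 each), a log2 fold change of -0.37 (SE 0.130, 95% interval -0.65 to -0.09) a fitted change of -22.5%, with an unadjusted p of 0.0135 and an adjusted p of 0.976 (limma). It stayed between -0.48 and -0.30 when any 1 gland was left out. With the mean log2 level of the posterior lobe and pituicyte markers as a covariate the value was -0.44. With Pax7 as a covariate it was also -0.44.

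Scg5 ran from 15604 to 20837 in vehicle glands (median 19021) and from 14916 to 17618 in mimic glands (median 16554). Of the vehicle glands 4 lay above the highest mimic gland, and all 6 mimic glands lay below the vehicle mean. The log2 fold change was -0.17 (SE 0.0710, 95% interval -0.32 to -0.02), a fitted change of -11.2%, with an unadjusted p of 0.0303 and an adjusted p of 0.976 (limma). With Pax7 as a covariate it was -0.09, and that of Chgb -0.09.

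Cpe and Pam were the steadiest of the 10. Cpe ran from 19823 to 24970 in vehicle glands (median 21557) and from 19456 to 23632 in mimic glands (median 20963), with a log2 fold change of -0.06 (SE 0.0629, 95% interval -0.19 to 0.08, limma). Pam ran from 36057 to 42593 in vehicle glands (median 39675) and from 37153 to 40841 in mimic glands (median 37984), with a log2 fold change of -0.03 (SE 0.0522, 95% interval -0.14 to 0.08, limma). The within-group SD of Pam was 0.08 on the log2 scale, lower than that of all but 4.49% of genes tested. That of Cpe was 0.11, at percentile 14.2. At the other end, Vgf had an SD of 0.81 on the log2 scale, at percentile 97.2, and Pcsk1 of 0.28, at percentile 67.3.

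**Figure D3:**
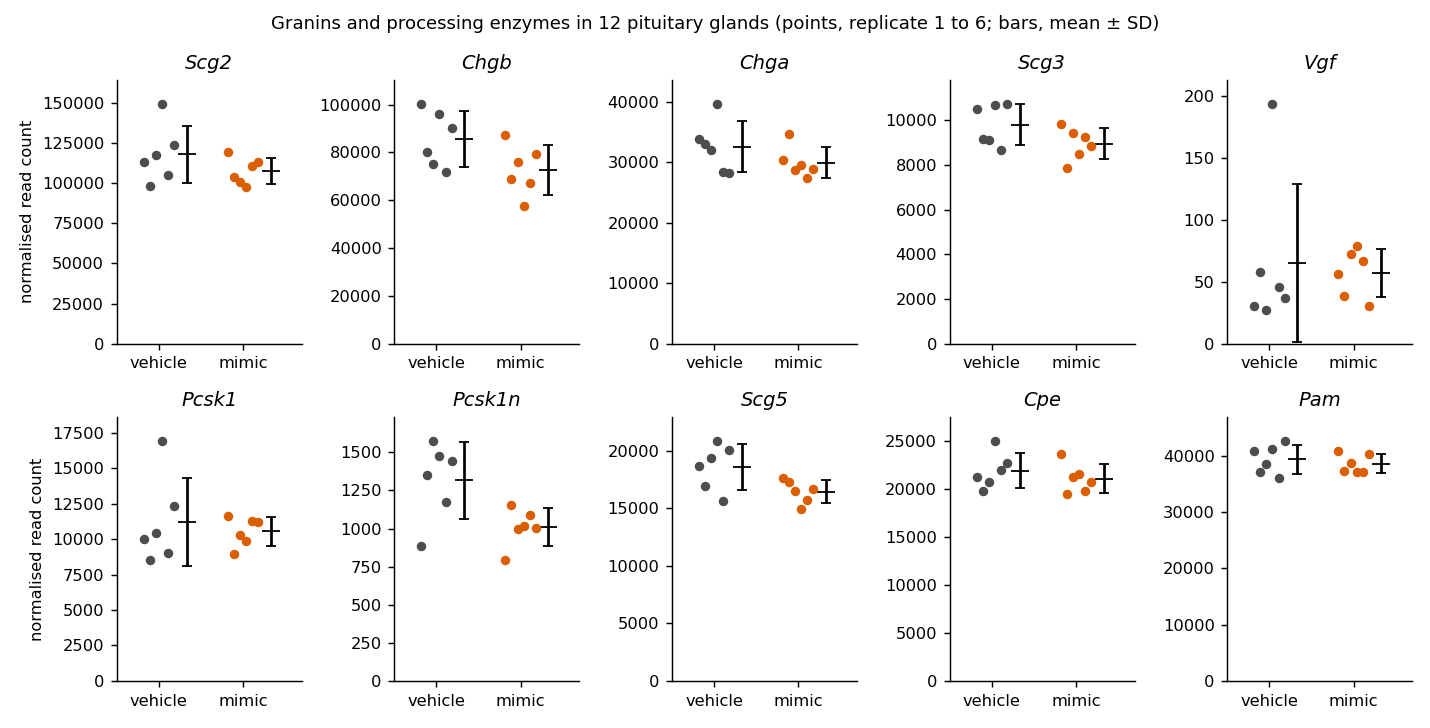
Normalised counts of the 10 genes in each gland, 1 panel per gene with its own axis, with the group mean and SD. Vehicle and mimic glands overlap in every panel, and vehicle 4 is the highest gland for 6 of the genes.

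The other genes of the pathway were 28 further convertases, carboxypeptidases, granule proteins and regulators, all of them measured. In limma, 20 had a negative log2 fold change and 8 a positive one, the median was -0.03, and 0 passed at an adjusted p under 0.05. Before adjustment 1 gene on each side had a p under 0.05, Furin lower and Pcsk2 higher.

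Furin, the convertase of the trans-Golgi network that cuts constitutively secreted precursors, ran from 1317 to 1992 normalised counts in vehicle glands (median 1590) and from 1075 to 1639 in mimic glands (median 1223). The groups overlapped, with a log2 fold change of -0.35 (SE 0.124, unadjusted p 0.0142, adjusted p 0.976, limma). Pcsk2, the convertase of melanotrophs, ran from 4178 to 17788 in vehicle (median 7877) and from 7603 to 21763 in mimic glands (median 13237). Its log2 fold change was 0.77 (SE 0.342, unadjusted p 0.0399, adjusted p 0.976, limma). The 3 lowest Pcsk2 values were vehicle 1, vehicle 6 and vehicle 4, at 4178, 4297 and 5569, which are the 3 glands lowest in Pomc and Pax7. With Pax7 as a covariate the Pcsk2 value was 0.16 and that of Furin -0.41.

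Insm1, a zinc-finger factor needed for endocrine cell differentiation, ran from 635.0 to 1082 in vehicle glands (median 830.3) and from 666.9 to 776.5 in mimic glands (median 716.9). Its log2 fold change was -0.22 (SE 0.105, unadjusted p 0.0571, limma). Of the vehicle glands 5 lay above all mimic glands, while vehicle 3 was the lowest of all 12. Ctsl, a cysteine protease also found in secretory granules, had a log2 fold change of -0.14 (SE 0.0771, unadjusted p 0.0934, limma), with vehicle values from 7563 to 10042 and mimic values from 7247 to 8930.

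Ratios within a library do not depend on how the libraries were scaled, and 3 were compared. The ratio of Pcsk1n to Pcsk1, inhibitor to enzyme, ran from 0.0873 to 0.158 in vehicle glands (median 0.124) and from 0.0681 to 0.130 in mimic glands (median 0.0968). The difference in mean log2 ratio was -0.32, with a two-sided exact permutation p of 0.132 (adjusted over the 3 ratios 0.132). The ratio of Scg5 to Pcsk2, chaperone to enzyme, ran from 0.877 to 4.67 in vehicle (median 2.56) and from 0.685 to 2.32 in mimic glands (median 1.29). Its log2 difference was -0.95, with an exact permutation p of 0.0758 (adjusted 0.132). The ratio of Pcsk1 to Pcsk2 ran from 0.505 to 3.04 in vehicle (median 1.51) and from 0.455 to 1.53 in mimic glands (median 0.760), a log2 difference of -0.83 with an exact permutation p of 0.117 (adjusted 0.132). None of the 3 passed, and the groups overlapped for each, with the highest values of both Pcsk2 ratios in vehicle 1, vehicle 4 and vehicle 6. The smallest p that 6 against 6 allows is 0.00216.

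Of the 12 libraries 1 stood apart for these genes. Vehicle 4 was the highest of all 12 libraries for 6 of the 10 genes, Pcsk1, Scg2, Scg5, Chga, Cpe and Vgf. Over all genes it was the highest library for 16.7% and the lowest for 15.9%. It also had the fewest reads on named genes (26378308) and the most genes at 0 (56). All of the 10 genes described here lay above their mean over the 12 libraries in vehicle 4. The mean standardised level of the 10 genes was 1.83 SD in vehicle 4, against -0.70 to 0.74 in the other 11. Vehicle 4 was also the highest library for the summed markers of 4 hormone cell types: somatotrophs (4125403, next highest library 3649517), lactotrophs (653031 and 583149), gonadotrophs (229759 and 160027) and thyrotrophs (182266 and 126616). Most of each sum was 1 hormone gene, Gh (4118190), Prl (640604) or, in both of the last lists, Cga (165379). Other markers were mixed. Lhb, Fshb, Tshb, Gnrhr, Tgfbr3l, Gata2 and Ghsr were also highest in vehicle 4. Nr5a1, Foxp2, Trhr, Dio2 and Esr1 lay there above their means over all libraries without being highest. Below their means in vehicle 4 were Pou1f1 (2345, mean 2621), Ghrhr (4373, mean 4730) and Sstr2 (142.0, mean 185.9). So were Drd2 (1928, mean 2504), Tshr (46.5, mean 78.37) and Akr1c14 (51.4, mean 51.83). None of the markers in these 4 lists was at 0 in any library. The part of this in the levels of the 10 genes was not tested. Without vehicle 4, 8 of the 10 log2 fold changes were negative, the median was -0.05, and only Pcsk1n kept an unadjusted p under 0.05 (limma). Pcsk1n was also alone in this without vehicle 6, mimic 4 or mimic 5. Mimic 4 was the lowest library for 3 of the genes, Scg2, Scg5 and Chgb, and for 9.23% of all genes.

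**Figure D4:**
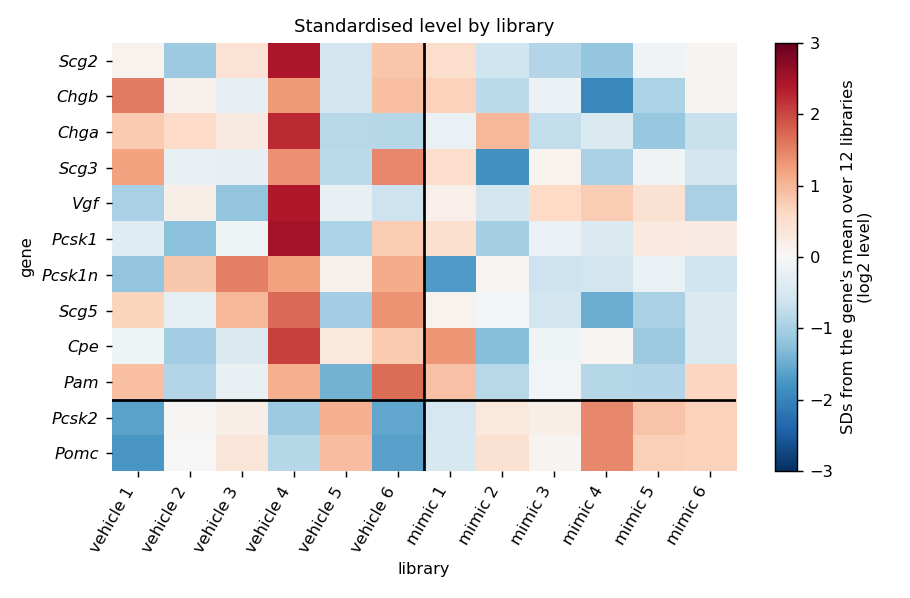
Standardised log2 level of the 10 genes, with Pcsk2 and Pomc in the last rows, in each of the 12 libraries (columns), in SD from the mean over all libraries. The column of vehicle 4 is above the mean in all rows of the 10 genes, with the largest values in the 6 genes for which it is the highest library.

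Pairs of the 10 genes were mostly positively correlated on the log2 scale across the 12 libraries (42 of 45 pairs, median r 0.498), as a description of libraries that share vehicle 4. Without it, a check added after its values were seen, 27 of 45 were positive and the median r was 0.245. The same share was not computed for pairs of other genes, so these counts do not set the 10 genes apart. The highest pair was Scg2 and Pcsk1 at r = 0.905, and 0.764 without vehicle 4. Both genes hold a cyclic AMP response element, the palindrome TGACGTCA bound by CREB-family factors, just before their start in the RefSeq promoters (GRCm38.p6), and so does Chgb. These 3 promoters are shown from 100 bases before to 20 bases after the start, on the gene's strand, with the element in capitals. Scg2 lies at chr1:79440007-79440126 on the minus strand, Chgb at chr2:132781542-132781661 on the plus strand, and Pcsk1 at chr13:75089757-75089876 on the plus strand.
Scg2: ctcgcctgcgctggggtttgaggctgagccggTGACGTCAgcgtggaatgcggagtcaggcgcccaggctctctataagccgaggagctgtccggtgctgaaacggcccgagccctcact
Chgb: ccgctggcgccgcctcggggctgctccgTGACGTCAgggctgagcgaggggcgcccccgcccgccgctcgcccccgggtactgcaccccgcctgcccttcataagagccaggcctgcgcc
Pcsk1: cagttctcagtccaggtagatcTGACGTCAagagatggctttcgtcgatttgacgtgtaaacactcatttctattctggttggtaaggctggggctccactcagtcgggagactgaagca
The first base of the element lies 68, 72 and 78 bases before the start in Scg2, Chgb and Pcsk1. Of the 10 genes 8 had an entry in the table, all but Cpe and Vgf, and 3 of the 8 held the 8 letters. Only these exact letters were searched. The end of the Chga entry was not found in an annotated transcript, so its absence there is less sure. In the table, whose windows run from 250 bases before to 50 after the start, 549 of 27025 genes held them in at least 1 promoter (2.03%), or 588 of 32851 promoters (1.79%). A match is a run of letters and not a measured binding site. Across glands r was 0.673 for Scg2 and Chgb (0.616 without vehicle 4) and 0.495 for Pcsk1 and Chgb (0.314 without vehicle 4). Where at most 1 gene of the pair was found to hold the element, r ran from -0.037 (Pcsk1n and Pam) to 0.828 (Scg3 and Chgb). The part of the element in these correlations was not tested.

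Several of the genes were lower in glands with more Pomc. Across the 12 glands the log2 level of Chgb was negatively correlated with that of Pomc (Pearson r = -0.910, permutation p 0.0001, adjusted over 10 relations 0.001; Spearman rho = -0.923, permutation p 0.00012, adjusted 0.0012). Chgb was lower by 0.18 on the log2 scale for each unit of log2 Pomc. With any 1 gland left out, r ran from -0.939 to -0.879. Without vehicle 1 and vehicle 6, the glands farthest from the median of Pomc, r was -0.915. Within vehicle glands r was -0.931 (exact permutation p 0.0194) and within mimic glands -0.881 (exact permutation p 0.025).

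Scg3 had r = -0.856 (permutation p 0.0006, adjusted 0.003) and rho = -0.839 (permutation p 0.00106, adjusted 0.0046), with r = -0.765 without the 2 farthest glands. Within groups r of Scg3 was -0.943 in vehicle (exact permutation p 0.0194) and -0.580 in mimic glands (exact permutation p 0.228). Scg5 had r = -0.792 (permutation p 0.00376, adjusted 0.0094) and rho = -0.832 (permutation p 0.00138, adjusted 0.0046), with r = -0.792 without those 2, -0.662 in vehicle (exact permutation p 0.178) and -0.845 in mimic glands (exact permutation p 0.0361). Pam had r = -0.804 (permutation p 0.00194, adjusted 0.00647) and rho = -0.762 (permutation p 0.00552, adjusted 0.0138), with r = -0.697 without the 2, -0.909 in vehicle (exact permutation p 0.0306) and -0.649 in mimic glands (exact permutation p 0.142). For all 4 genes r was negative within both groups. The within-group p-values are unadjusted, and adjusted over the 10 relations of a group none passed, the smallest being 0.097 in vehicle and 0.180 in mimic glands. Whether the 2 groups differ in r was not tested.

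The other 6 genes did not pass in this relation. Scg2 had r = -0.568 and rho = -0.615 (permutation p adjusted 0.138 and 0.0722), and Cpe, Pcsk1 and Chga had r of -0.446, -0.421 and -0.366. Pcsk1n (r = -0.055) and Vgf (r = 0.043) had values near 0. The relations were computed over the same glands for all 10 genes and are not separate observations. They were computed for these 10 alone, so the share of all genes that relate to Pomc as closely is not known. The 10 genes were chosen with earlier results of these data known, so passing here does not set them apart from other genes. Pomc, Pax7 and Pcsk2 were all lowest in vehicle 1, vehicle 4 and vehicle 6. The same 3 glands were the lowest for the summed posterior lobe and pituicyte markers, at 3326, 4689 and 2972 against at least 8989 in the other 9, and for 6 of the 12 markers singly. The summed level of the 5 melanotroph markers, most of it Pomc, ran from 59292 to 430420 in vehicle and from 143725 to 640245 in mimic glands, with 4 of the 5 markers higher on average in mimic glands, 0 of them called by limma, and none at 0. The part of the intermediate and posterior lobes in these relations was not tested.

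**Figure D5:**
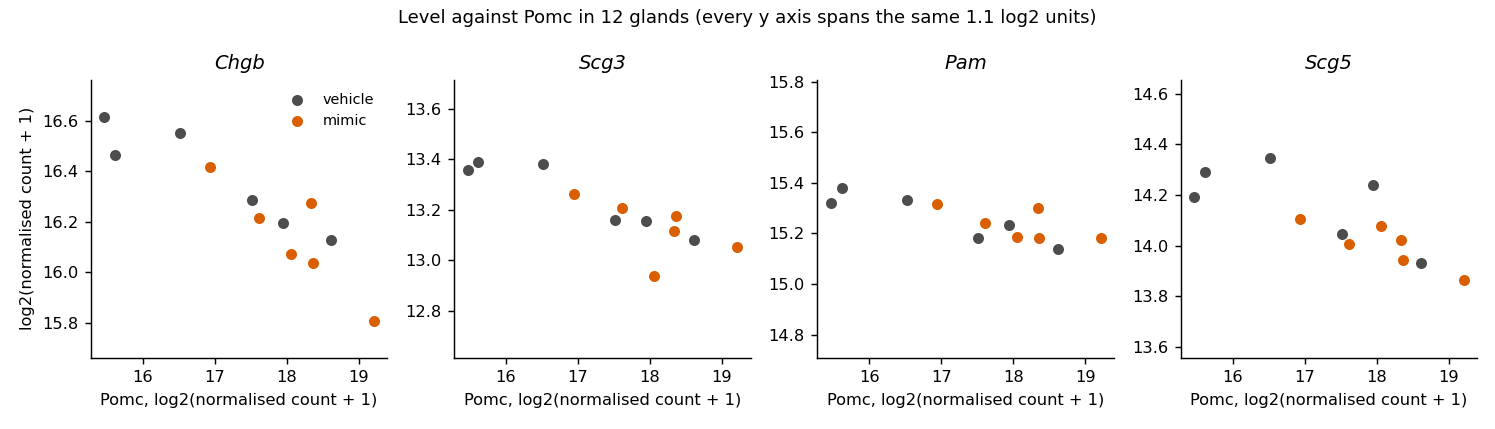
Log2 normalised count of Chgb, Scg3, Pam and Scg5 (1 panel each, vertical axes of equal span) against that of Pomc (horizontal axis) in the 12 glands, with vehicle and mimic glands in separate colours. The points slope downward in each panel, and for Chgb they do so within both groups (r = -0.931 and -0.881).

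The genes whose log2 level followed the mean of the 10 most closely over the 12 libraries, among 15276 genes with a mean of at least 50, were Mkrn1 (r = 0.966), Cpq (0.935), Zfp948 (0.933), Clybl (0.931) and Synpr (0.931). Cpq encodes a secreted carboxypeptidase and Synpr the synaptic vesicle protein synaptoporin. Without vehicle 4 these 5 had r from 0.799 for Zfp948 to 0.968 for Synpr. The nearest single genes were Qpct for Scg2 (r = 0.951), Nnat for Chgb (0.949), Tmem59l for Scg3 (0.968), Aga for Scg5 (0.959), C1qtnf4 for Pcsk1n (0.963), Btbd8 for Pcsk1 (0.925), Eif1ad for Chga (0.910), Dsc2 for Cpe (0.946), Diaph3 for Pam (0.911) and Phyhipl for Vgf (0.958). Qpct encodes glutaminyl cyclase, which forms the pyroglutamate at the start of some peptides and belongs to the 28 other genes of the pathway. These values were picked as the highest of many and are given as a description.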

How the data were processed

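RNA was measured in 12 pituitary glands. The submitters' processing notes name Trimmomatic 0.39, kallisto 0.50.1, DESeq2 1.48.2, FastQC 0.12.1, MultiQC 1.28 and the build GRCm39. The authors deposited 1 table whose signal per gene is a normalised count. Within a library all values were multiples of 1 step (100% within 0.001 of a whole number after multiplication by the size factor, 0.817 to 1.17). This gave the whole counts called reads here, which are kallisto's estimates per gene and not a tally of single reads. A row without a gene name (0.0359% to 0.0567% of reads) was left out.

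Groups were compared with limma-trend (version 3.58.1, in R 4.3.3) on log2(value + 1), which understates changes of low genes. It used the 18390 genes with at least 10 in at least 6 libraries, two-sided, with Benjamini-Hochberg adjustment over all of them and a threshold of 0.05. edgeR 4.0.16 and DESeq2 1.42.0 on recovered reads were alternatives. Single ratios were tested over all 924 assignments, and correlations with 100000 permutations. The limma fit was tested on simulated data. Lengths and untranslated regions came from GENCODE M21 by symbol, and sequences from RefSeq (GRCm38.p6), not the authors' build. Reads that fit several genes were divided upstream, which could shift members of a gene family.

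The members and gene lists were chosen with earlier results of these data known. The genes named are the 10 members, Pcsk2, Furin and the 4 other pathway genes of smallest unadjusted p (which include both), the hormone genes beside a result, the 5 genes most like the members' mean and the nearest gene to each member. Same-numbered libraries of the 2 groups are not labelled as paired.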

Additional observations from a re-analysis of the deposited data

Results flagged for a closer look

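In vehicle 4, Vgf was at 193.4 normalised counts, apart from the other 5 vehicle glands (27.1 to 57.8). In the same library Lhb, the luteinising hormone beta subunit, was at 21929, apart from the others (8453 to 12816). In mimic 4, Tshb, the thyrotropin beta subunit, was at 3816, below the others (5863 to 6697). Each of these 3 lay farther from its group than Dixon's 95% limit allows. Of 48 group values tested for the members and the genes beside them, chance alone gives about 2.4.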

How the results depend on the processing

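DESeq2 called 10 genes, none a member, where limma called 0. Over the other settings, 123 of 130 log2 fold changes of the members kept their direction, as did 117 of 120 with 1 gland left out. The exceptions were Pcsk1 (0.0411 with library weights, 0.0257 with the posterior lobe covariate, 0.0607 with the Pax7 covariate, and -0.1217 to 0.0751 with 1 gland left out), Pam (0.0115 and 0.0362 with those covariates) and Vgf (-0.17 in edgeR, -0.18 in DESeq2, and -0.0645 to 0.493 with 1 gland left out). The cause was not tested. No member had an adjusted p under 0.05 in any setting (smallest 0.622, limma without vehicle 5), so the threshold could not tell settings apart. The members' median was -0.04 with the Pax7 covariate and -0.07 with the posterior lobe covariate. In both of these limma fits only Pcsk1n kept an unadjusted p under 0.05. By normalised count without division by length, Pam took rank 3 among the members, Chga 4, Scg5 6, Pcsk1 7 and Scg3 8, and the other 5 kept their ranks. The same-numbered libraries did not deviate together (correlations -0.149 to 0.086, 0 of 6 above 0.1). With the replicate block, limma called 0 genes and the members' median was -0.12, with 9 of 10 negative. Leaving out each gland in turn gave 0 genes called every time and members' medians from -0.15 to -0.05. Vgf had the fewest reads of the members, 368 and 342 per group, and the largest spread between glands.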
